A study of Mus musculus with 2 samples.

Results

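The genes described here are 9 components of the Sonic hedgehog pathway, chosen by name and not by any measured value: Shh, Ptch1, Smo, Gas1, Hhip, Sufu, Gli1, Gli2 and Gli3. They are 9 of 55536 genes in the deposited tables, and each was found there once by its symbol in the GENCODE M21 annotation of mm10. RNA with a polyA tail was sequenced from the whole forebrain of newborn mice (age 0 days) of the strain B6NCrl, with no treatment and no altered allele in the labels. There was 1 group of 2 libraries, each from a single forebrain and 10 ng of RNA, taken from pup 3 (replicate 2) and pup 1 (replicate 1). The pups carry the same donor identifier in the labels, and their sex was not collected. With 1 group no contrast between conditions exists, so the values describe levels and how far the 2 pups lay apart, with no p-value. The libraries held 41230878 expected counts in pup 3 and 40964891 in pup 1. Levels are in TPM, a scale that divides counts by transcript length, so that genes of different length can be set side by side.

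Sonic hedgehog is a secreted protein that patterns the ventral neural tube and later keeps neural progenitors and stem cells dividing. Its receptor Ptch1 holds the membrane protein Smo inactive until a ligand binds. Active Smo works in the primary cilium, where it relieves the Gli transcription factors of inhibition by Sufu. Gli1 acts as an activator, Gli2 mainly as an activator, and Gli3 mainly as a repressor once it has been cut. Ptch1, Gli1 and Hhip are themselves switched on by the pathway, so their transcripts are widely used as readouts of it. In the late forebrain the ligand is known from ventral and diencephalic cells and from some neurons, whereas the receiving genes are known from progenitors and glia. In whole tissue, fewer cells that make a transcript and less of that transcript in each cell cannot be told apart.

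Transcripts of all 9 genes were counted in both pups, several at a low level, with the ligand the lowest of the 9 genes. From high to low the mean levels were 18.4 ± 0.120 TPM for Gas1, 12.3 ± 3.22 TPM for Sufu, 5.17 ± 2.35 TPM for Smo and 3.06 ± 1.29 TPM for Ptch1 (± is the SD over n = 2 pups throughout). Gli3 followed at 2.18 ± 0.863 TPM, Hhip at 1.17 ± 0.502 TPM, Gli1 at 0.835 ± 0.177 TPM, Gli2 at 0.795 ± 0.417 TPM and Shh at 0.400 ± 0.198 TPM. The order was the same in both pups except that Gli1 and Gli2 changed places. Gas1 stood above Sufu, and Sufu above Smo, with no overlap of the pups' values. From Smo downward, neighbours in the order overlapped, apart from Gli3 and Hhip. In both pups, 5 of the 9 genes (Gas1, Sufu, Smo, Ptch1 and Gli3) reached a TPM of 1, the level counted here as detected, against 59.5% of protein-coding genes and 26.6% of all genes. In pup 3 alone 5 genes reached it, and in pup 1 alone 7. The median over the 9 genes was 2.18 ± 0.863 TPM, against 13.4 TPM over the 15463 genes whose mean reached 1 TPM, of which these genes supply 6.

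**Figure D1:**
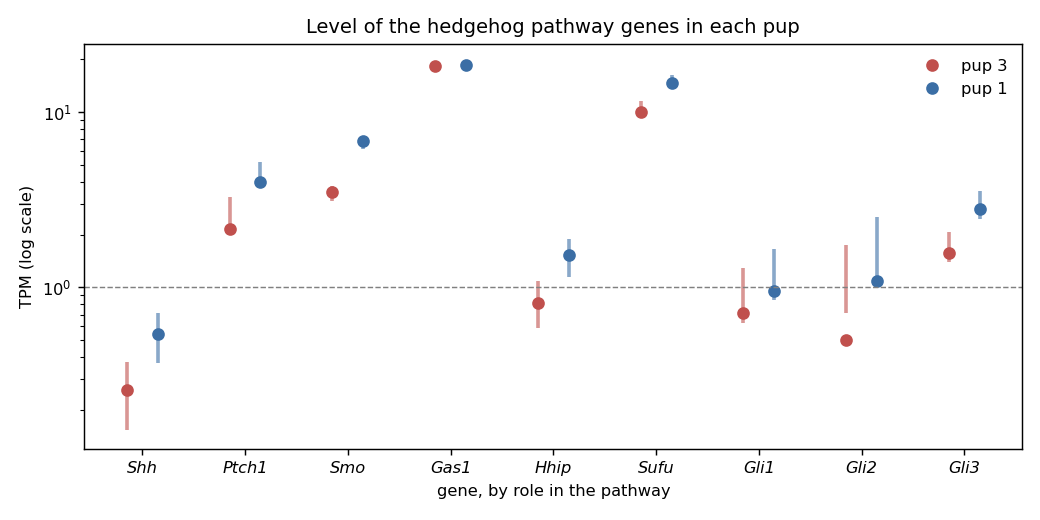
Level of each pathway gene in TPM on a log axis, ordered by role, with pup 3 to the left of pup 1; vertical lines are the intervals the authors deposited with each value and the dashed line marks a TPM of 1. Gas1 lies at 18.36 and 18.53 TPM in pup 3 and pup 1, and Shh lies lowest, at 0.26 and 0.54 TPM.

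The ligand Shh (ENSMUSG00000002633.4, chromosome 5, 28456815 to 28467256, minus strand) was found at a low level in both forebrains. It had 20.78 expected counts and 0.26 TPM in pup 3 (deposited interval 0.153 to 0.375), and 38.40 counts and 0.54 TPM in pup 1 (0.371 to 0.710). Both values were above the limit of 3 counts, equal to 0.0375 TPM in pup 3, against 0.0422 TPM in pup 1. Its single annotated transcript has 3 exons and 2847 bases. From its first to its last base, introns included, Shh overlaps 9530036O11Rik by 8983 bases and Gm26894 by 883 bases. Both are noncoding genes on the opposite strand. Without a stated strand, reads from bases that such genes share cannot be told apart by strand. Whether their exons overlap those of Shh was not examined. 9530036O11Rik held 2.07 counts in pup 3 and 6.17 in pup 1, and Gm26894 held 5.16 in pup 3 and 10.43 in pup 1. The other hedgehog ligands were also under 1 TPM. Dhh, the ligand of Schwann cells and testis, stood at 0.46 TPM in pup 3, against 0.21 TPM in pup 1. Ihh, the ligand of growing cartilage and gut, stood at 0.09 TPM in pup 3, against 0.16 TPM in pup 1.

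Genes that prepare and release the ligand were detected more widely than the ligand itself. Of 7 such genes 6 were detected in both pups, against 59.5% of protein-coding genes, with a list median of 3.42 ± 0.672 TPM. Hhat, the enzyme that attaches palmitate to hedgehog proteins, stood at 1.46 ± 0.0636 TPM. Disp1, the transporter that releases the lipid-bearing ligand, stood at 4.84 ± 0.488 TPM. Scube1, Scube3 and Scube2, secreted proteins that help Disp1, stood at 8.76 ± 1.05, 2.54 ± 0.0283 and 0.970 ± 0.495 TPM. Adam17, a membrane protease, stood at 8.02 ± 2.08 TPM, and Notum, an enzyme that removes lipid from secreted signals and is best known from Wnt proteins, at 3.42 ± 0.672 TPM.

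The receptor Ptch1 (ENSMUSG00000021466.12, chromosome 13, 63508328 to 63573598, minus strand) exceeded its ligand in both pups. It had 385 counts and 2.14 TPM in pup 3, and 653 counts and 3.97 TPM in pup 1. Within a library, Ptch1 was 8.23-fold above Shh in pup 3 and 7.35-fold above it in pup 1, a log2 ratio of 2.65 ± 0.02 on the log2(TPM + 0.1) scale. Ptch1 has several starts, and its transcripts differ in them. The leading transcript, Ptch1-202 (7002 bases, 24 exons), held 54.80% of the gene's TPM in pup 3 and 69.84% in pup 1. Ptch1-201 (7725 bases) held 13.72% in pup 3 and 7.45% in pup 1, and Ptch1-204, annotated for nonsense-mediated decay, 11.64% in pup 3 and 5.55% in pup 1. The retained-intron transcript Ptch1-210 held 7.09% in pup 3 and 10.63% in pup 1. Of the 10 annotated transcripts, 4 were at 0 in both pups. In level, Ptch1-202 stood at 1.17 TPM in pup 3, against 2.78 TPM in pup 1, whereas Ptch1-201 was nearly equal at 0.29 TPM and 0.30 TPM. The difference in the gene's level between the pups thus lay mostly in Ptch1-202 counts, 238.08 in pup 3 and 500.16 in pup 1. Transcripts of such length overlap over most of their bases, so their shares are estimates.

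The Ptch1 promoter that RefSeq lists (GRCm38.p6, chr13:63565686-63565985, minus strand) is shown because its start is that of the minor transcript Ptch1-201, 1200 bases upstream of the first base of the leading Ptch1-202. The start lies after base 250 of the printed strand.
Ptch1 promoter: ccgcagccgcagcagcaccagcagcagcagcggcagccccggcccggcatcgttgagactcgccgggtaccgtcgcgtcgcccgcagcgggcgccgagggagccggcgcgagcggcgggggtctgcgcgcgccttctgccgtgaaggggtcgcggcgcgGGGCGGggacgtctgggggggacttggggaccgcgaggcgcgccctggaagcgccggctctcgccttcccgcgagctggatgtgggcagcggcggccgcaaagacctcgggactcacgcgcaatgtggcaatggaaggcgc
Capitals mark the only match among the motifs searched, a GC box (GGGCGG) at bases 160 to 165. This window holds 47 CpG pairs and 76.3% G and C, against medians of 7 pairs and 52.7% over 32851 promoters of 300 bases. Promoters were listed for 7 of the 9 genes and were searched on both strands for the Gli consensus GACCACCCA, the CCAAT box CCAAT, the TATA box TATAAA and the GC box GGGCGG. None of the 7 windows held the Gli consensus, which 0.253% of all promoters held, and none held the TATA box, which 13.6% of all held. The GC box was found in all but that of Smo, against 35.7% of all promoters, and the CCAAT box in those of Sufu and Gas1, against 37.4%. Shh and Gli1 had no entry.

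Smo (ENSMUSG00000001761.7, chromosome 6, 29735503 to 29761365, plus strand), the transducer that Ptch1 holds in check, exceeded Ptch1 in both pups. It had 374 counts and 3.51 TPM in pup 3, and 646 counts and 6.83 TPM in pup 1. In pup 3 the deposited intervals of Smo (3.09 to 3.79) and Ptch1 (2.13 to 3.29) overlapped. In pup 1 they lay apart, at 6.15 to 7.19 for Smo and 3.87 to 5.17 for Ptch1. Ptch1 stood at 0.610 of the Smo level in pup 3 and 0.581 in pup 1, a log2 ratio of -0.73 ± 0.06. Nearly all of Smo came from Smo-201 (3779 bases, 12 exons), with 95.57% of the gene's TPM in pup 3 and 95.55% in pup 1. The rest was the retained-intron transcript Smo-202.

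Gas1 (ENSMUSG00000052957.8, chromosome 13, 60174405 to 60177365, minus strand), a membrane-anchored coreceptor that binds Shh and aids signalling in the embryo, was the highest of the 9 genes and, in TPM, the most even between pups. In CPM with TMM scaling its log2 ratio of pup 3 over pup 1 was 0.27, farther from 0 than that of Gli1 at -0.10 or Sufu at -0.16. It had 1545.54 counts and 18.36 TPM in pup 3 (deposited interval 17.2 to 19.0), and 1384.51 counts and 18.53 TPM in pup 1 (17.2 to 19.2). All of it was assigned to the single-exon transcript Gas1-201 of 2961 bases. An overlapping noncoding gene on the other strand, Gm48488, held 8.46 counts in pup 3 and 9.49 in pup 1. The coreceptors Boc and Cdon, which act in parallel with Gas1, stood lower, at 2.58 ± 0.474 TPM and 0.905 ± 0.219 TPM. Glypicans, cell-surface proteoglycans that bind hedgehog and other ligands, stood at 43.6 ± 7.06 TPM (Gpc3, a competitor of Ptch1 for the ligand), 9.49 ± 1.40 TPM (Gpc4), 7.46 ± 2.19 TPM (Gpc6) and 6.59 ± 0.311 TPM (Gpc5). Lrp2, a large endocytic receptor that binds Shh in the early forebrain, stood at 0.03 TPM in pup 3, against 0.12 TPM in pup 1. The promoter of Gas1 (GRCm38.p6, chr13:60177486-60177785, minus strand) is given because Gas1 had the highest level of the 9 genes. The part of promoter sequence in any level was not tested.
Gas1 promoter: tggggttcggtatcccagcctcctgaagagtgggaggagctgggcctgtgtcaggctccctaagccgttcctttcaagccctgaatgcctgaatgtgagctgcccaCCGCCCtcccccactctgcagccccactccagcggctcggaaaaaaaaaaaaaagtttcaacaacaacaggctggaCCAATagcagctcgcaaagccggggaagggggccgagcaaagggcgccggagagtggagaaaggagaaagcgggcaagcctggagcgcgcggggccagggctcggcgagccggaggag
Capitals mark a GC box on the other strand at bases 107 to 112 and a CCAAT box at bases 183 to 187. The window has 62.3% G and C and 17 CpG pairs, and its start, after base 250, lies 170 bases upstream of the first base of Gas1-201.

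Hhip (ENSMUSG00000064325.4, chromosome 8, 79965851 to 80058006, minus strand), a surface protein that binds hedgehog ligands and dampens the signal, stood near 1 TPM. It had 141 counts and 0.81 TPM in pup 3, and 238.93 counts and 1.52 TPM in pup 1. With the older annotation M4 it stood at 1.23 TPM in pup 3, against 2.31 TPM in pup 1, a mean of 1.77 TPM, and so reached 1 TPM in both pups. The ratio of Ptch1 to Hhip, both targets and inhibitors of the pathway, was close to equal in the pups, 2.64-fold in pup 3 and 2.61-fold in pup 1, and its mean log2 of 1.31 was 0.70 with M4. Gas1 exceeded Hhip 22.7-fold in pup 3 and 12.2-fold in pup 1. The coding transcript Hhip-201 (9074 bases, 13 exons) held 61.36% of the gene's TPM in pup 3 and 62.85% in pup 1. The noncoding Hhip-202 (1173 bases) held the other 38.64% in pup 3 and 37.15% in pup 1. By counts Hhip-201 held 93.0% in pup 3 and 93.4% in pup 1, because a short transcript reaches a given TPM on fewer reads.

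Sufu (ENSMUSG00000025231.17, chromosome 19, 46396896 to 46488804, plus strand), the cytoplasmic inhibitor that binds Gli proteins, was the highest of the intracellular members. It had 1107 counts and 10.06 TPM in pup 3, and 1347 counts and 14.62 TPM in pup 1. Sufu exceeded Gli3 by 6.41-fold in pup 3 and 5.24-fold in pup 1. Sufu-201 (4522 bases, 12 exons) led with 74.73% of the gene's TPM in pup 3 and 67.63% in pup 1, and the noncoding Sufu-207 held 14.60% in pup 3 and 11.12% in pup 1. The coding transcript Sufu-202 (1747 bases) was uneven, at 0.40 TPM or 4.01% in pup 3 and 2.44 TPM or 16.67% in pup 1. Its counts were 19.57 in pup 3 and 104.80 in pup 1, so the difference in Sufu TPM is in part a difference in the shorter transcript.

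**Figure D2:**
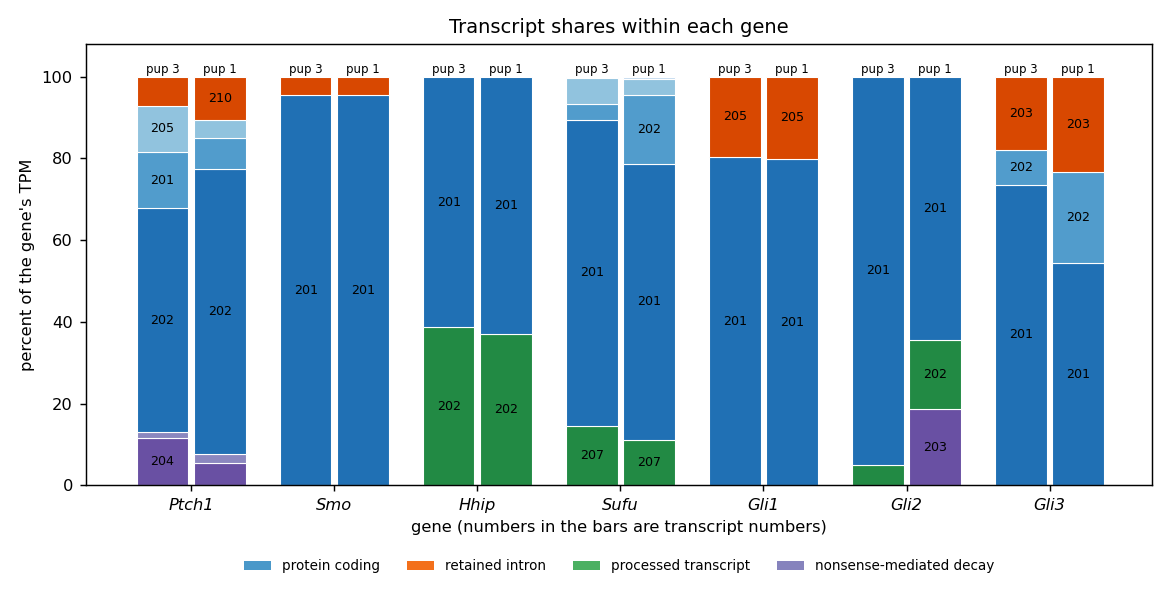
Percent of each gene's TPM held by each annotated transcript, pup 3 to the left of pup 1 within each gene, coloured by transcript class with transcript numbers in shares of 8% or more; Shh and Gas1, each with all of its TPM in 1 transcript, are not drawn. Smo, Hhip and Gli1 show nearly equal shares in both pups, whereas Gli2-201 holds 94.95% in pup 3 and 64.48% in pup 1.

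Among the 3 Gli factors, Gli3 was the highest in both pups. Gli3 (ENSMUSG00000021318.15, chromosome 13, 15463235 to 15730026, plus strand) had 304.25 counts and 1.57 TPM in pup 3, and 398.49 counts and 2.79 TPM in pup 1. Gli1 (ENSMUSG00000025407.7, chromosome 10, 127329882 to 127341974, minus strand) had 69.04 counts and 0.71 TPM in pup 3, and 83 counts and 0.96 TPM in pup 1. Gli2 (ENSMUSG00000048402.14, chromosome 1, 118834132 to 119053619, minus strand) had 91 counts and 0.50 TPM in pup 3, and 125 counts and 1.09 TPM in pup 1. Gli3 thus exceeded Gli1 by 2.21-fold in pup 3 and 2.91-fold in pup 1, and Gli2 by 3.14-fold in pup 3 and 2.56-fold in pup 1. The log2 ratio of Gli2 to Gli1 was -0.43 in pup 3 and 0.17 in pup 1, so the data give these factors no order. A noncoding gene on the strand opposite Gli1, Gm47200, held 3.96 counts in pup 3 and 0 in pup 1, and Arhgap9, which overlaps the end of Gli1 by 62 bases, held 41 in pup 3 and 31 in pup 1.

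The levels of Gli2 and Gli3 depended on short transcripts. Gli2-201 (6637 bases, 14 exons) held 99.8% of the gene's counts in pup 3 and 95.5% in pup 1, but 94.95% of its TPM in pup 3 and 64.48% in pup 1. In pup 1 the rest of the TPM came from Gli2-203 with 4.29 counts and Gli2-202 with 1.28 counts, which in pup 3 held 0 and 0.20 counts. With Gli2-201 alone, Gli2 stood at 0.47 TPM in pup 3, against 0.70 TPM in pup 1. The deposited TPM of Gli2 also lay under its own deposited interval, 0.716 to 1.74 in pup 3 and 1.12 to 2.53 in pup 1, which goes with the posterior mean of 1.19 TPM in pup 3, against 1.78 TPM in pup 1. Gli3-201 (8170 bases, 15 exons) held 73.60% of TPM in pup 3 and 54.47% in pup 1, the shorter coding Gli3-202 8.49% in pup 3 and 22.27% in pup 1, and the retained-intron Gli3-203 17.92% in pup 3 and 23.27% in pup 1. Gli3-202 had 7.45 counts in pup 3 and 30.88 in pup 1. Gli1-201 (4057 bases, 13 exons) held 80.40% of TPM in pup 3 and 79.83% in pup 1, and the retained-intron Gli1-205 the rest on 2.84 counts in pup 3 and 3.53 in pup 1.

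Shown is the stretch of 60 coding bases of Gli2 with the most bases identical to Gli1 and Gli3 together. Each was matched at its best place without gaps, in the coding parts of the leading transcripts alone. How reads from this stretch were assigned was not tested. It lies in the part that encodes the zinc fingers that bind DNA, and falls in a single exon in each leading transcript (coding bases 853 to 912 of Gli1-201 in exon 9, 1390 to 1449 of Gli2-201 in exon 10, and 1579 to 1638 of Gli3-201 in exon 11). On GRCm38 these are chr10:127335972-127336031 on the minus strand, chr1:118845926-118845985 on the minus strand and chr13:15713580-15713639 on the plus strand.
Gli1: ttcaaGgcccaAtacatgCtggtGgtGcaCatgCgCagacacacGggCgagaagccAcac
Gli2: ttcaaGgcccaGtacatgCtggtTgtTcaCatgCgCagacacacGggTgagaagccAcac
Gli3: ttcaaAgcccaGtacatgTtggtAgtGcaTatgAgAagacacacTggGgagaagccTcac
Capitals mark the 11 positions at which the 3 sequences are not all alike. Gli1 and Gli2 share 56 of the 60 bases, and Gli3 shares 50 with either. The longest run of identical coding bases was 25 between Gli2 and Gli3, 23 between Gli1 and Gli2 and 14 between Gli1 and Gli3. No stretch of 31 bases was shared by any pair.

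All 9 genes had a lower TPM in pup 3 than in pup 1, and for 8 of them the gap was also seen in CPM, the counts scaled to each library's total. In the deposited TPM, 79.6% of those 15463 genes were lower in pup 3, and 94.8% of the 5256 protein-coding ones with leading transcripts of 3000 bases or more. Of the 9 genes, 7 have leading transcripts of that length, Gas1 and Shh have shorter ones, and Shh, Gli1 and Gli2 lie under the mean TPM of 1 that both shares require. A lower value in pup 3 was common among the genes measured. The median log2 ratio of TPM + 1, pup 3 over pup 1, was -0.48 over the 9 genes and -0.24 over all genes. The gap exceeded 2-fold on that scale for 0 of the 9 genes, against 2.83% of all genes. The lowest ratios were those of Smo at -0.80 and Ptch1 at -0.66, which 5.52% and 10.1% of all genes fell below. Gli3 followed at -0.56, Sufu at -0.50, Gli2 and Hhip at -0.48, Shh at -0.29, Gli1 at -0.20 and Gas1 at -0.01. The pseudocount of 1 understates the gap of genes at a low level. In plain TPM, Gli2 in pup 3 stood at 0.459 of its level in pup 1, Shh at 0.481, Smo at 0.514, Hhip at 0.533, Ptch1 at 0.539 and Gas1 at 0.991.

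Ratios of CPM, which use counts and no transcript length, gave the same direction for 8 of the 9 genes, each with a smaller gap than in plain TPM. The ratio in pup 3 over pup 1 was 0.575 for Smo (exact 95% interval 0.505 to 0.654), 0.586 for Ptch1 (0.515 to 0.665), 0.586 for Hhip (0.473 to 0.725) and 0.549 for Shh (0.306 to 0.960). Gli2 had a ratio of 0.723 (0.546 to 0.955), Gli3 0.759 (0.651 to 0.883), Gli1 0.826 (0.591 to 1.15) and Sufu 0.817 (0.753 to 0.885). Gas1 went the other way, at 1.11 (1.03 to 1.19). The interval lay below 1 for 7 of the 9 genes, against 43.8% of all genes, and above 1 for Gas1, against 19.5%. It held 1 for Gli1. Shh, Gli1 and Gli2 lie under the mean TPM of 1 that these shares require. CPM here had no further scaling, and the median log2 ratio of CPM + 1 over the genes in those shares was -0.099. The upper bounds for Shh and Gli2 lay near 1, so the count of 7 may depend on the scaling. Intervals with TMM scaling were not computed. These intervals compare 2 libraries and cover counting error alone, so they do not include the spread between animals. Gas1 was lower in pup 3 in TPM but higher in FPKM and in CPM with each scaling tried, so its direction depends on the unit.

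**Figure D3:**
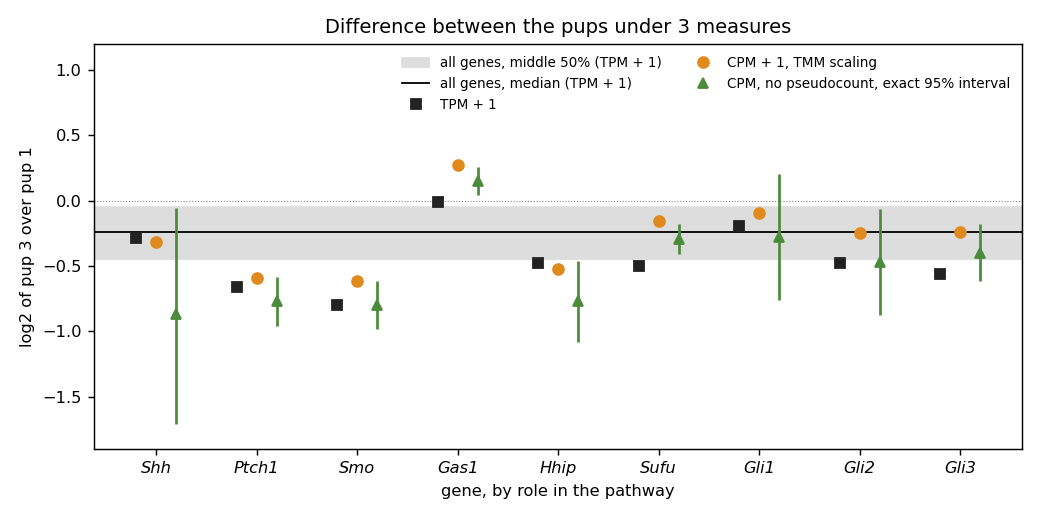
Log2 of pup 3 over pup 1 for each gene under 3 measures (TPM + 1, CPM + 1 with TMM scaling, and plain CPM with its exact 95% interval); the black line and grey band are the median and the interquartile range of the 15463 genes, on the TPM + 1 scale. Smo at -0.80 and Ptch1 at -0.66 lie lowest on the TPM + 1 scale, and Gas1 lies above 0 in both CPM measures.

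Transcript length moved with the difference between pups. Across 13474 protein-coding genes the log2 ratio fell with the length of the leading transcript, with a Spearman rho of -0.43 across genes, which are not independent. The median was -0.24 for leading transcripts of 2000 to 3000 bases, the class of Gas1 and Shh, and -0.30 for 3000 to 4000 bases, the class of Smo. It was -0.39 for 4000 to 6000 bases (Gli1 and Sufu), -0.46 for 6000 to 8000 bases (Ptch1 and Gli2) and -0.57 for 8000 bases or more (Gli3 and Hhip). Of the 6 pathway genes whose mean reached 1 TPM, Gli3, Hhip and Sufu lay between the quartiles of their class. The place of Hhip, at a mean of 1.17 TPM, depends on the pseudocount of 1. In plain TPM the ratio of Hhip was 0.533, close to the 0.539 of Ptch1. Smo and Ptch1 lay below the lower quartile of theirs, -0.46 for Smo and -0.61 for Ptch1. Gas1 lay above the upper quartile of its class, -0.10. Shh, Gli1 and Gli2 were too low to be among the genes of the classes, and the pseudocount of 1 moves their ratios towards 0, so they were not placed against the quartiles. The part of length in the difference of any single gene was not tested.

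**Figure D4:**
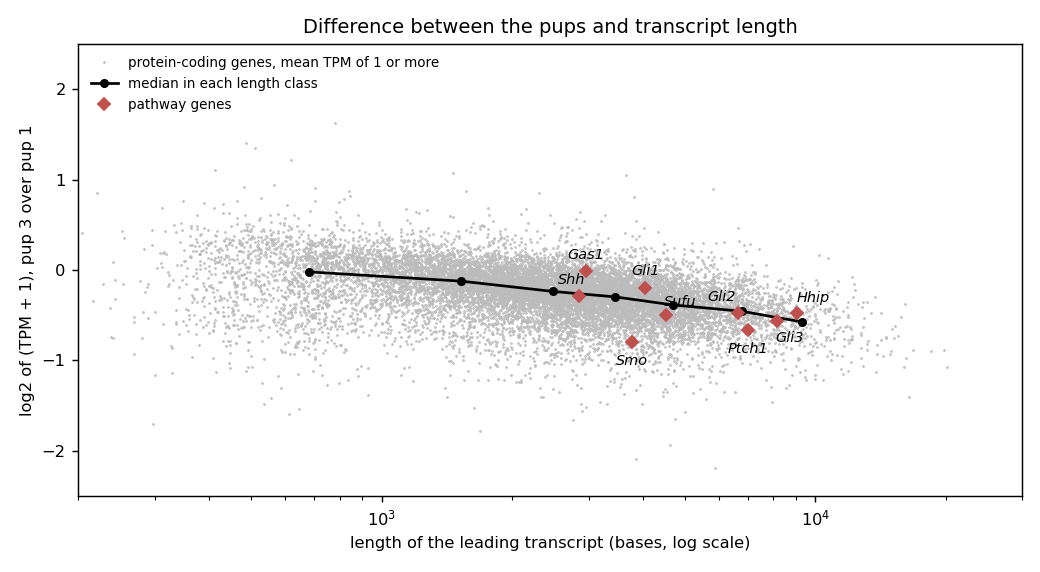
Log2 of TPM + 1 in pup 3 over pup 1 against the length of each gene's leading transcript on a log axis, with protein-coding genes in grey, the median of each length class in black and the pathway genes as red diamonds. The class medians run from -0.02 under 1000 bases to -0.57 at 8000 bases or more, and Smo at -0.80 and Gas1 at -0.01 lie farthest from theirs among the pathway genes.

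Regional genes also moved with the difference between pups. Of 10 thalamic genes 10 were lower in pup 3, against 79.6% of all genes, with a summed level of 330.89 TPM in pup 3, against 647.16 TPM in pup 1 and a median log2 ratio of -0.99, against -0.24 over all genes. Tcf7l2, a factor of the developing thalamus, stood at 89.58 TPM in pup 3, against 233.20 TPM in pup 1, and Slc17a6, the vesicular glutamate transporter of thalamic neurons, at 22.10 TPM in pup 3, against 45.26 TPM in pup 1. Of 14 hypothalamic genes 14 were lower in pup 3, against the same 79.6%, with sums of 113.00 TPM in pup 3, against 264.36 TPM in pup 1 and a median of -0.78. Nkx2-1, a factor of the hypothalamus and ventral telencephalon whose early expression requires Shh, stood at 3.06 TPM in pup 3, against 5.94 TPM in pup 1. Among the hypothalamic genes only Rax was listed at 0, in pup 3. Genes of the ventral telencephalon and preoptic area summed to 607.78 TPM in pup 3, against 700.48 TPM in pup 1, with a median of -0.27. The part of these regions in the levels of Shh, Ptch1 and Smo was not tested.

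Markers of the labelled tissue were present, with all 10 forebrain genes detected. By the same rule 59.5% of protein-coding genes were detected, the share to set beside each such count here. Neurod6, a factor of cortical excitatory neurons, stood at 315.67 TPM in pup 3, against 196.84 TPM in pup 1. Of the 10 forebrain genes, 6 were lower in pup 3, against 79.6% of all genes, with a median log2 ratio of -0.09. Emx2 and Foxp2, both lower in pup 3, stood at 3.75 and 14.55 TPM there and at 9.26 and 30.71 TPM in pup 1. None of 12 genes of the midbrain, hindbrain and cerebellum was detected in both pups, and Atoh1, the factor of cerebellar granule cell progenitors, which respond strongly to Shh, stood at 0.02 TPM in both. Hoxa2, Hoxb2, Hoxb3, Hoxb4 and Fev were at 0 in both pups. Not all of the 12 lay so low. Lmx1a had 0.43 TPM in pup 3 but passed the detection level in pup 1, at 1.28 TPM. Tph2 had 0.62 TPM in pup 3 and 0.86 TPM in pup 1. Both genes stood above Shh in each pup. Genes of neural stem cells and radial glia had a median of 24.9 ± 5.91 TPM and a median log2 ratio of -0.32. Astrocyte genes had 27.9 ± 9.83 TPM and -0.53, oligodendrocyte lineage genes 9.76 ± 2.52 TPM and -0.39, and neuronal genes 191 ± 62.0 TPM and -0.44. For choroid plexus genes the values were 8.74 ± 2.10 TPM and -0.38, for meninges and fibroblasts 26.2 ± 2.62 TPM and -0.04, and for endothelium and pericytes 7.34 ± 1.06 TPM and -0.07. Genes of cartilage, bone and skin had a median of 0.635 ± 0.0778 TPM, and 4 of 10 were detected. Several of these genes stand in more than 1 list, and the part of any cell type in the pathway genes' levels was not tested.

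Genes that carry the signal from Smo to the nucleus were detected throughout, 27 of 27, against 59.5% of protein-coding genes. Their list median was 18.9 ± 2.98 TPM. The kinases and regulators that mark Gli proteins for processing were the highest. Prkar1a, a regulatory subunit of protein kinase A, stood at 360 ± 38.3 TPM, Prkaca, a catalytic subunit, at 157 ± 28.9 TPM, and the casein kinase Csnk1a1 at 227 ± 24.9 TPM. Csnk1e, a second casein kinase, stood at 127.12 TPM in pup 3, against 204.90 TPM in pup 1. These kinases serve many pathways. The 4 lowest genes of the list are named after their values were seen. Kif7, the ciliary kinesin that organises Gli proteins at the cilium tip, stood at 1.10 TPM in pup 3, against 1.65 TPM in pup 1. Gpr161, a receptor that holds the pathway off, stood at 1.98 TPM in pup 3, against 2.34 TPM in pup 1, and Evc and Evc2, partners of Smo, at 1.79 and 2.42 TPM in pup 3 and 1.96 and 2.28 TPM in pup 1. In this list 26 of 27 genes were lower in pup 3, against 79.6% of all genes, and 2 of 27 lay over 2-fold apart, against 2.83%. Among protein-coding genes with leading transcripts of 3000 bases or more, 94.8% were lower in pup 3. The list holds leading transcripts above and below that length, so neither share matches it. Spop, an adaptor that targets Gli2 and Gli3 for degradation, stood at 70.54 TPM in pup 3, against 176.13 TPM in pup 1, a log2 ratio of -1.31. Ulk3, a kinase that acts on Gli factors, stood at 4.76 TPM in pup 3, against 12.86 TPM in pup 1, a log2 ratio of -1.27. In unscaled CPM + 1 these ratios were -1.01 and -1.07.

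All 18 genes of primary cilium assembly and transport were detected, against 59.5% of protein-coding genes, at a median of 11.8 ± 2.18 TPM. In pup 3, 18 of 18 were lower, against 79.6% of all genes. The share was 94.8% for protein-coding genes with leading transcripts of 3000 bases or more. This list holds leading transcripts above and below that length, so neither share matches it. The median log2 ratio of the list was -0.40, against -0.24 over all genes. The highest were Kif3a, a motor subunit that carries cargo along the cilium, at 232 ± 57.1 TPM with a leading transcript of 770 bases, and the intraflagellar transport genes Ift81, Ift57 and Ift52 at 52.7 ± 3.80, 47.4 ± 4.70 and 23.5 ± 3.49 TPM. Of 19 genes reported elsewhere as hedgehog targets, the 9 genes above left out, 16 were detected in both pups, against the same 59.5%. The highest were Ccnd2, a cyclin, at 364 ± 31.1 TPM, Mycn, a transcription factor of the Myc family, at 57.1 ± 9.04 TPM, Spp1, which encodes osteopontin, at 51.9 ± 5.85 TPM, and Igfbp3, which binds insulin-like growth factors, at 25.4 ± 2.26 TPM. Foxa2, the floor plate factor, stood at 0.21 TPM in pup 3, against 0.25 TPM in pup 1. The median log2 ratio of the target list was -0.30, against -0.24 over all genes, and 15 of 19 were lower in pup 3, a share near the 79.6% of all genes, whereas Mycn was higher, at 63.48 TPM in pup 3, against 50.70 TPM in pup 1. Most of these genes have other inputs than hedgehog.

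**Figure D5:**
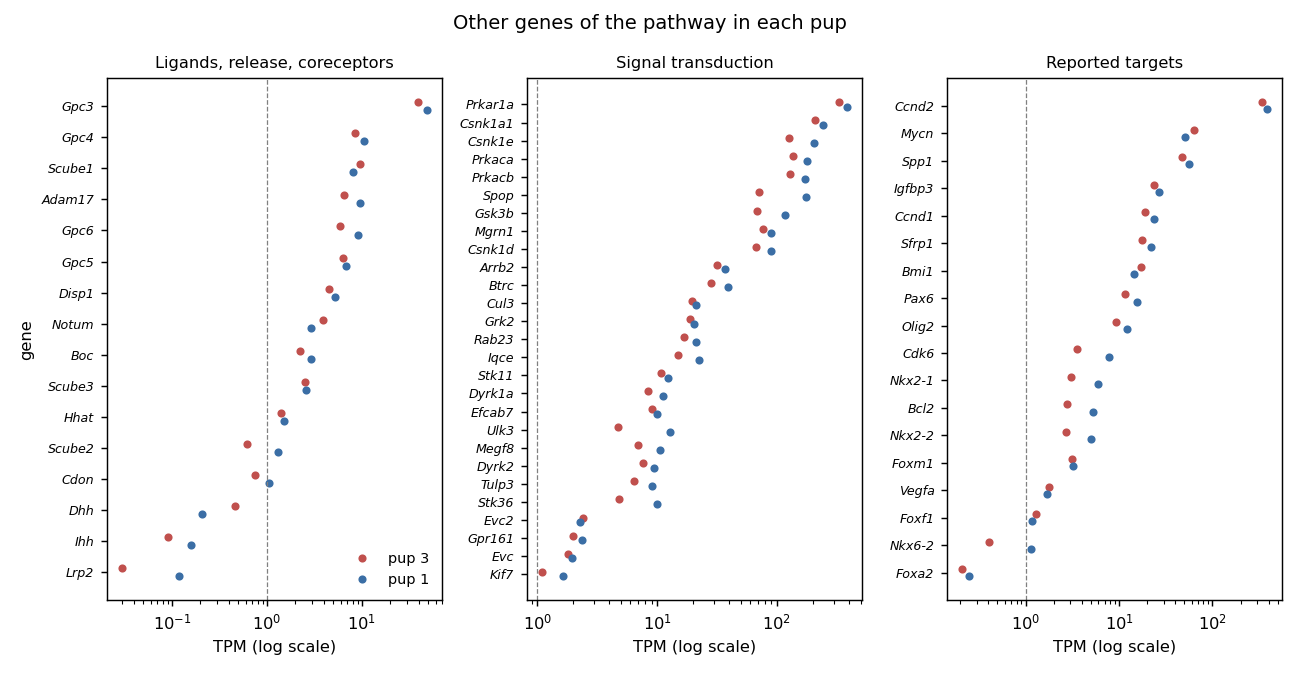
TPM on log axes of other pathway genes in pup 3 (red, drawn above) and pup 1 (blue), in 3 panels for ligands, release and coreceptors, for signal transduction and for reported target genes; the dashed lines mark a TPM of 1. Every signal transduction gene lies above the line, with Kif7 lowest at 1.10 TPM in pup 3, against 1.65 TPM in pup 1, whereas Ihh, Dhh and Lrp2 lie below it in both pups.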

How the data were processed

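Per the labels, RNA from single newborn forebrains was primed with oligo-dT and tagmented (Nextera). Per the file headers and the deposited notes, genes and transcripts were quantified on mm10 with annotations M21 and M4. The aligner, the quantifier and whether strand was kept are not stated in the labels or headers. The authors deposited expected counts (estimated counts, reads of several places split), TPM with posterior means, FPKM and the percent of gene TPM held by a transcript. The TPM intervals, also deposited by the authors with no stated level, were read as bounds on the TPM signal.

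M21 was used, with symbols and coordinates from GENCODE M21 and promoters from RefSeq (GRCm38.p6). Differences are log2 of TPM + 1, pup 3 over pup 1, beside all genes whose mean reached 1 TPM. Pairs used TPM + 0.1 within a library. Rounded counts gave exact Clopper-Pearson 95% intervals of CPM ratios. TMM came from edgeR 4.0.16, size factors from DESeq2 1.42.0, and other steps from Python 3.11.15. The ratio and scaling steps were tested on simulated data. No group test was possible with 1 group.

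The 9 genes and 19 lists were chosen with earlier results of these data known. All 9 genes were named. Others could be named from the ligand, release and coreceptor lists, or if among the 4 highest of a list. Genes over 2-fold apart at a TPM of 5 or more, and genes needed to state a level under 1, could also be named. Not every such gene was named, so an unnamed gene of a list may also lie over 2-fold apart. Transcripts were named at 5% of TPM in both pups. Other names were chosen after their values were seen. Some genes of the lists are not reported here. Reads carry no molecular identifiers, so intervals and the limit of 3 counts cover counting error alone.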

Additional observations from a re-analysis of the deposited data

How the results depend on the processing

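No paired analysis was possible because the labels give 1 group, so no replicate number is shared between groups. With 2 pups, a shift is compared with a very small spread, and the cause of each shift below was not tested. Lowering the TPM minimum to 0.5 raised the genes detected in both pups from 5 to 8, and a minimum of 5 left 2. Leaving out each pup in turn gave 5 to 7 genes and a median level of 1.57 to 2.79 TPM. No alternative put any of the 9 genes over 2-fold apart on its log2 scale with the pseudocount. The median log2 ratio of the 9 genes (-0.48) was -0.83 with a pseudocount of 0.1, -0.24 in CPM with TMM scaling, -0.23 with DESeq2 size factors, -0.32 in FPKM, -0.36 in unscaled CPM and -0.29 with leading transcripts alone. Relative to all genes (-0.24) it was -0.56 with a pseudocount of 0.1, -0.48 with no filter on low values and -0.081 with leading transcripts alone. The last setting and unscaled CPM were chosen after seeing the data.

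The log2 ratio of Gli2 to Gli1 (-0.13) changed sign to 0.41 with posterior mean TPM and ran from -0.43 to 0.17 when each pup was left out. Ptch1/Shh (2.65) was 2.56 in FPKM, 2.91 with posterior means, 2.51 with M4, 1.50 with a pseudocount of 1 and 1.99 with leading transcripts. Ptch1/Smo (-0.73) was -0.45 with posterior means, -0.79 with M4, -0.59 with a pseudocount of 1 and -1.32 with leading transcripts. Ptch1/Hhip (1.31) was 1.28 in FPKM, 1.55 with posterior means, 0.70 with M4, 0.89 with a pseudocount of 1 and 1.27 with leading transcripts. Gli3/Gli2 (1.38) was 0.60 with posterior means, 0.82 with a pseudocount of 1 and 1.08 with leading transcripts. Gli3/Gli1 (1.25) was 0.77 with a pseudocount of 1 and 0.90 with leading transcripts. Gas1/Hhip (3.93) was 3.19 and 4.55 under these settings, and Sufu/Gli3 (2.48) was 2.07 with a pseudocount of 1.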
